A study of Homo sapiens with 18 samples.

Results

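IFI6, IFI27, IFI27L1, IFI27L2, IFI44, IFI44L and IFI35 are 7 protein-coding genes among the 58050 Ensembl gene identifiers measured in KNS-42 glioma cells. They were chosen by name and by the measured level of IFI6, which had the highest value of any gene in 1 library, replicate 1 of the parental cells given guide 395. In that library IFI6 stood at a normalised value of 265631, ahead of the mitochondrial ribosomal RNA MT-RNR2 at 146822 and the MHC class I light chain gene B2M at 108701. Because that choice used a measured value, tests that include the parental 395 libraries are printed below as a description, beside the share of all genes, and nothing is read from them. A normalised value is a gene's read count divided by 1 size factor per library. All 7 were among the 15228 genes that passed a filter on low values, which asked for 3 or more libraries with a value of 10 or more.

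Type I and type III interferons bind separate receptors that signal through JAK kinases to a complex of transcription factors that binds the interferon-stimulated response element (ISRE) in promoters and raises transcription of interferon-stimulated genes (ISGs). IFI6 and IFI27 encode small hydrophobic proteins of the ISG12 family, with roles in antiviral defence and, for IFI27 and in part for IFI6, a mitochondrial location. IFI27L1 and IFI27L2 are paralogues of IFI27 that lie on either side of it, IFI44 and IFI44L are neighbouring paralogues induced by type I interferon, and IFI35 encodes a protein that binds NMI.

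KNS-42 is an established human glioma line, and every cell used here expressed Cas9 and was kept in medium with puromycin. Parental cells, cells overexpressing a codon-optimised DDX3X (DDX3Xoe) and cells overexpressing a codon-optimised DDX3Y (DDX3Yoe) were each transduced with a lentivirus carrying either guide 395, against endogenous DDX3X, or a control guide against AAVS1. DDX3X and its Y-linked homologue DDX3Y are RNA helicases. RNA was taken on day 7 after transduction and sequenced from transcript 3′ ends, with 3 libraries in each of the 6 groups, to ask what loss of endogenous DDX3X does in cells with and without a replacement helicase. The labels give 1 line of each kind and do not say whether it was 1 clone, which promoter drove the transgenes, or whether replicates were separate cultures, so p-values measure only the spread between these libraries, which may be technical.

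The 18 libraries held between 5667609 and 13201602 reads. DDX3X, the guide's target, was at 1811 ± 100 (SD, n = 3) in parental AAVS1 and 886 ± 58.8 in parental 395 libraries, and at 1458 ± 90.5 and 757 ± 114 in the DDX3Yoe groups. In DDX3Xoe cells the replicate 1 libraries ran against their labels, with DDX3X at 668 in the library labelled AAVS1 and 1416 in the library labelled 395, so differences that involve DDX3Xoe cells are also given without them. DDX3Y was at 0 reads in every library, and the reads of a codon-optimised transgene need not map to the endogenous gene. Of 12 glioma and neural progenitor markers, 10 were detected in every library, and OLIG2 and S100B were at 0 in every library. Of 7 leukocyte markers, PTPRC, CD3E, CD14, AIF1 and LYZ did not pass the filter and reached 6.69, 4.26, 9.02, 2.17 and 2.96 at most. CD68, at a mean value of 44.1, and the MHC class II gene HLA-DRA, between 2601 and 9186, had reads in all 18 libraries, and their part in the results was not tested. The plasmacytoid dendritic cell markers CLEC4C and IL3RA were at 0 in every library, and GZMB of the same list reached 2.17 at most. Of the endothelial markers, PECAM1 and VWF passed the filter and reached 40.5 and 38.3 at most. CDH5 did not pass it and reached 10.5.

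The promoters are shown first because the 4 genes whose levels spanned the widest ranges carry the same response element letters, while IFI27L2, shown for contrast, does not. Each window runs from 250 bases before to 50 bases after a RefSeq transcript start (GRCh38.p14), 5′ to 3′ on the gene's strand, and 7 of 7 genes matched a window, with 9 windows in all. Capitals mark the letters GAAANNGAAA of the ISRE on either strand (TTTCNNTTTC when read on the other strand).

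IFI6, chr1:27672143-27672442, minus strand: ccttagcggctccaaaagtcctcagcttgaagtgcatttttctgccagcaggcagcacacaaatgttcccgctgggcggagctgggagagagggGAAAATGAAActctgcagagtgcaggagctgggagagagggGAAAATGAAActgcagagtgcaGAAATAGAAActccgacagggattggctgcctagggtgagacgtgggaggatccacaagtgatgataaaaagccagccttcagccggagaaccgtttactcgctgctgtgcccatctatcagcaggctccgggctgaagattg

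IFI27, first window, chr14:94110486-94110785, plus strand: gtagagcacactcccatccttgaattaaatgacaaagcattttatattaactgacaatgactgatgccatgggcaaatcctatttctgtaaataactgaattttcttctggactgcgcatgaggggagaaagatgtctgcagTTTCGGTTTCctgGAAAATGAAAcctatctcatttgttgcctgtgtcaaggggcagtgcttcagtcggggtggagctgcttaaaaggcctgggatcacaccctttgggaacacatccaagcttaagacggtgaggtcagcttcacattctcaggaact

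IFI44L, chr1:78620198-78620497, plus strand: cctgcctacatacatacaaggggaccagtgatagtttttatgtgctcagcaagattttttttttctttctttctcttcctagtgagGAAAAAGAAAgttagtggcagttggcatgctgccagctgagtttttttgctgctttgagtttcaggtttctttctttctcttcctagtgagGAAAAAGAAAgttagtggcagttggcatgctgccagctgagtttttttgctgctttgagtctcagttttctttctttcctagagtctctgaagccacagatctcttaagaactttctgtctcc

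IFI44, first window, chr1:78649539-78649838, plus strand: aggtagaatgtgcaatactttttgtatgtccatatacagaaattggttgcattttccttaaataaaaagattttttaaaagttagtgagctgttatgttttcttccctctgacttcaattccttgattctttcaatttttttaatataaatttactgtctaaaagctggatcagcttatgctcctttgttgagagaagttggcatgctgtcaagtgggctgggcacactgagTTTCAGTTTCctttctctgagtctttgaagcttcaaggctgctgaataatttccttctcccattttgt

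IFI27L2, chr14:94129555-94129854, minus strand: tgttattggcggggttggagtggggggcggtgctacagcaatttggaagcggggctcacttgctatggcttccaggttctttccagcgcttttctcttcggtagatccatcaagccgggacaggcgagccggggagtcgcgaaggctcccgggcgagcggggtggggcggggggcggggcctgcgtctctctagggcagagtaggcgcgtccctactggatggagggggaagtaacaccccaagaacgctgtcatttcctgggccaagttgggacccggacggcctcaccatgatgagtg

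These ISRE letters stood in at least 1 window of 4 of the 7 genes and in 3.57% of all 35116 RefSeq promoter windows of this length. IFI6 had 3 matches, starting 156, 115 and 93 bases before the start, and the first 2 lie in a stretch of 29 bases that recurs exactly at a spacing of 41 bases. IFI44L had 2 matches, starting 164 and 73 bases before the start, inside a stretch of 85 bases that recurs at a spacing of 91 bases. IFI27 had 2 matches on opposite strands in each of its 2 windows, starting 108 and 95 bases before the start in the first. IFI44 had 1 match, which starts 18 bases before the start in the first of its 2 windows. IFI27L1, IFI27L2 and IFI35 had none in their windows. The letters TTCNNNGAA of the interferon gamma activated site (GAS) stood in the windows of IFI27, where they overlap both ISRE matches, and IFI35, against 7.66% of all windows. The 4 genes with ISRE letters spanned 17.8 to 89.8-fold between their lowest and highest of the 18 libraries, and the 3 without spanned 2.66 to 7.53-fold, which is a description of 7 genes with no test. For these 4 genes and IFI35, parental 395 replicate 1 was the highest library and DDX3Yoe AAVS1 replicate 2 the lowest. The ranges of these genes thus rest in part on the library on which IFI6 was chosen. Leaving it out, the highest values were 157054 for IFI6, 2976 for IFI27, 10533 for IFI44L, 792 for IFI44 and 2049 for IFI35. The lowest values of these genes were 7073, 45.2, 600, 78.7 and 277, so IFI44 and IFI35 then spanned more similar ranges. By the SD of log2 values over the 18 libraries, IFI35 at 0.94 lay close to IFI44 at 0.97 and IFI44L at 1.06. IFI27L1 was at 0.37 and IFI27L2 at 0.49. A match is a run of letters, not a measured binding site.

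In the GENCODE 29 annotation of GRCh38, IFI6 lies on chromosome 1 at chr1:27666061-27672218 on the minus strand, overlapped by the antisense gene AL445490.1, whose value reached 18.6 at most. IFI44L (chr1:78619922-78646145) and IFI44 (chr1:78649796-78664078) lie in a row on the plus strand with 3650 bases between them. IFI27L1 (chr14:94081282-94103846), IFI27 (chr14:94104836-94116698) and IFI27L2 (chr14:94127779-94130253, minus strand) follow each other, with 989 and 11080 bases between them. IFI35 (chr17:43006725-43014456) ends 148 bases from the end of VAT1, which is on the other strand. The RefSeq starts used above lie inside these annotated gene bodies by 5900 bases or more for IFI27, 649 for IFI27L2, 526 for IFI44L and at most 59 for the other 4 genes, except that of the first IFI44 window, which lies just before the gene. The sources used here do not give whether reads were counted by strand, so reads of overlapping or abutting genes on opposite strands cannot be told apart, and reads shared between the IFI27 paralogues may be split.

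IFI6 was among the most abundant transcripts of the parental cells. It took 0.494, 0.615 and 0.744% of all reads in parental AAVS1 replicates 1, 2 and 3, and 2.97, 1.87 and 1.52% in parental 395 replicates. The 95% Wilson interval of the highest share was 2.96 to 2.98%, which covers counting error only, since reads without molecular identifiers are not independent molecules. By value IFI6 held rank 1, 2 and 2 of all genes in the parental 395 libraries and rank 11, 7 and 6 in the parental AAVS1 libraries. Among DDX3Xoe and DDX3Yoe libraries its rank ran from 3 in DDX3Yoe 395 replicate 2 to 118 in DDX3Yoe AAVS1 replicate 2. In the latter IFI6 took 0.0797% of all reads. The replicate 1 libraries labelled DDX3Xoe AAVS1 and DDX3Xoe 395 had it at ranks 37 and 24. IFI6 made up between 78.6 and 93.2% of all reads of the 7 genes in a library.

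The IFI6 values were 43776, 65589 and 66485 in parental AAVS1 and 265631, 157054 and 131526 in parental 395 libraries. All 3 of the latter exceeded every other library in the study. In DDX3Xoe cells they were 16555, 51913 and 35855 with AAVS1 and 21564, 59916 and 45445 with 395, so these groups overlapped and replicate 1 was lowest in both. In DDX3Yoe cells they were 41877, 7073 and 38033 with AAVS1 and 67708, 97317 and 46284 with 395. There every 395 library exceeded every AAVS1 library, and AAVS1 replicate 2 was the lowest of all 18. Ordered by mean, the groups ran from parental 395 (184737 ± 71210, SD, n = 3) over DDX3Yoe 395 (70436 ± 25625), parental AAVS1 (58617 ± 12860), DDX3Xoe 395 (42308 ± 19368) and DDX3Xoe AAVS1 (34774 ± 17704) to DDX3Yoe AAVS1 (28994 ± 19082). In this order only the first 2 groups did not overlap, and every other pair of neighbours did. Levels here are of bulk RNA, in which fewer expressing cells and less RNA per cell cannot be told apart.

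**Figure D1:**
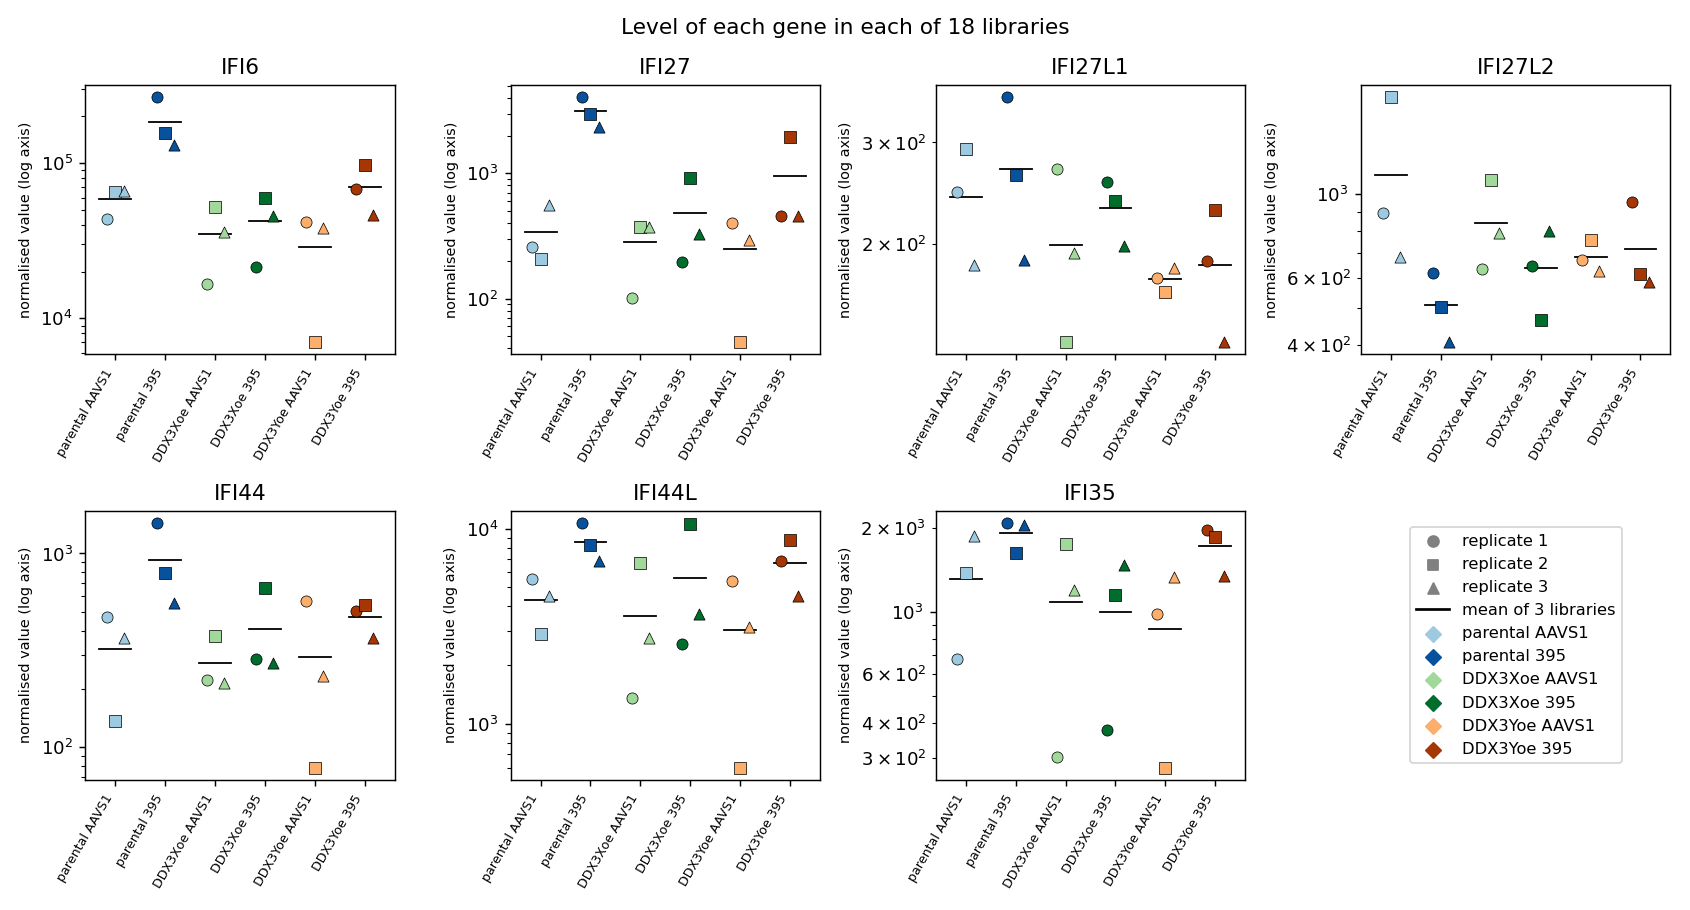
Normalised value (log axis) of each of the 7 genes in each library, by group on the horizontal axis, with circles, squares and triangles for replicates 1, 2 and 3 and a line at the mean of 3 libraries. IFI6 and IFI27 in parental 395 libraries lie above all other libraries, DDX3Yoe AAVS1 replicate 2 is the lowest library for 5 of the 7 genes, and IFI27L1 spans a far narrower range.

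IFI27 had the widest range of the 7 genes, 89.8-fold from its lowest to its highest library, against 37.6-fold for IFI6. Its values were 256, 206 and 554 in parental AAVS1 and 4055, 2976 and 2336 in parental 395 libraries. All 3 parental 395 libraries lay above the other 15. In DDX3Xoe cells they were 101, 370 and 375 with AAVS1 and 195, 919 and 328 with 395, and the groups overlapped. In DDX3Yoe cells they were 404, 45.2 and 295 with AAVS1 and 458, 1942 and 458 with 395, without overlap. The lowest value, in DDX3Yoe AAVS1 replicate 2, rests on 35 reads, with an exact 95% Poisson interval of 24.4 to 48.7 reads. By group mean parental 395 (3123 ± 869, SD, n = 3) stood apart from DDX3Yoe 395 (953 ± 856), and all groups below it overlapped their neighbours in the order.

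The paralogues on either side of IFI27 had other patterns. IFI27L1 lay between 135 and 360 in all 18 libraries, a 2.66-fold range, and all 6 groups overlapped their neighbours in the order of means. IFI27L2 was at 894, 1807 and 681 in parental AAVS1 and at 618, 504 and 407 in parental 395 libraries. Here the 395 libraries were the lower ones, without overlap. Its DDX3Xoe values were 635, 1093 and 788 with AAVS1 and 647, 466 and 801 with 395, and its DDX3Yoe values were 670, 755 and 625 with AAVS1 and 954, 614 and 584 with 395. Both pairs of groups overlapped. IFI27L2 was the only 1 of the 7 genes whose highest library was not parental 395 replicate 1.

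The ratio of IFI27 to IFI27L2 reads changed order between groups. It was 0.114 to 0.815 in the parental AAVS1 libraries and 5.74 to 6.56 in the parental 395 libraries. In DDX3Xoe cells it was 0.160 to 0.476 with AAVS1 and 0.302 to 1.97 with 395. In DDX3Yoe cells it was 0.0598 to 0.604 with AAVS1 and 0.481 to 3.17 with 395. IFI27 thus exceeded IFI27L2 in every parental 395 library and in 1 library each of DDX3Xoe 395 and DDX3Yoe 395, both of them replicate 2, and in no AAVS1 library. Since the kit reads the 3′ end of each transcript, these ratios of read values do not scale with transcript length, but they can still differ by how well each 3′ end is captured.

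**Figure D2:**
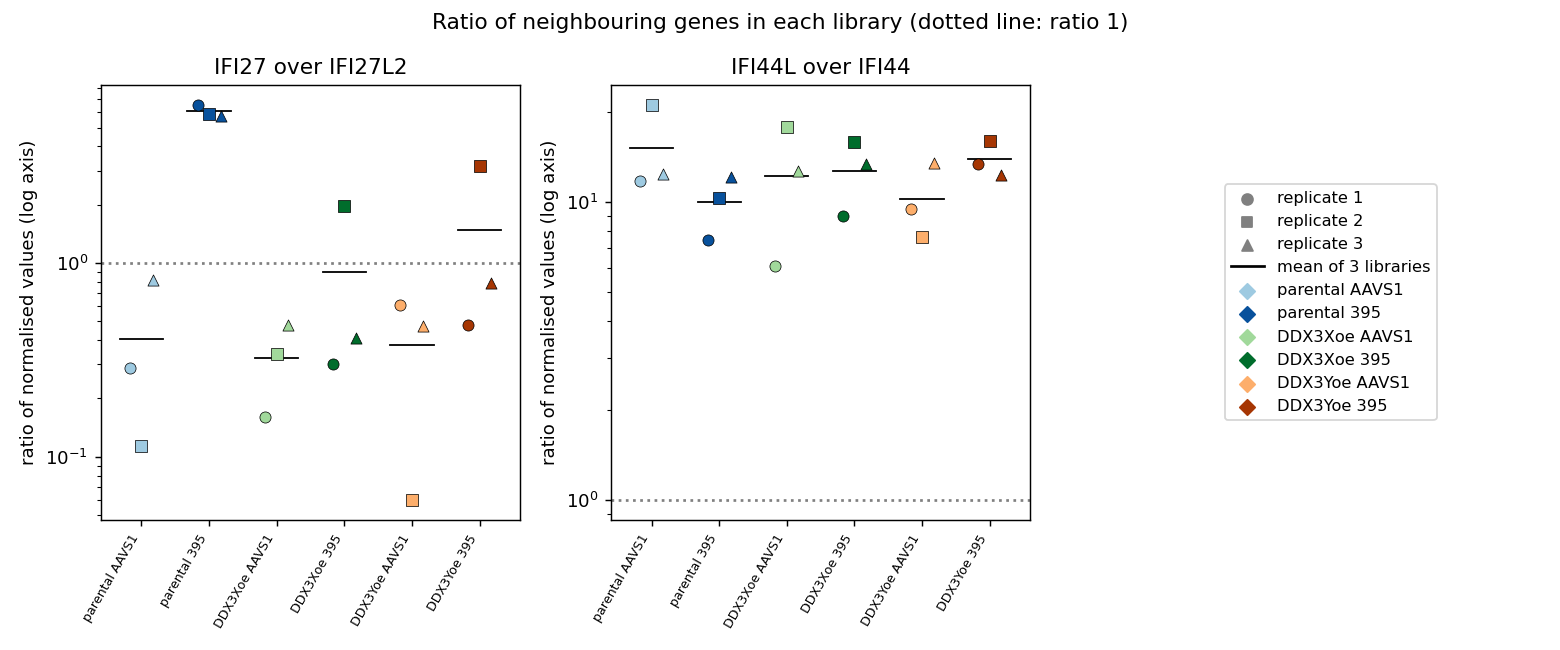
Ratio of normalised values of 2 pairs of neighbouring genes in each library (log axes, dotted line at a ratio of 1), by group, with circles, squares and triangles for replicates 1, 2 and 3 and a line at the mean. The IFI27 to IFI27L2 ratio is 5.74 to 6.56 in parental 395 libraries and below 1 in every AAVS1 library, while the IFI44L to IFI44 ratio lies between 6.11 and 21.2 throughout.

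IFI44L was the second most abundant of the 7 genes, with a mean of 5298 over the 18 libraries against 449 for its neighbour IFI44. The IFI44L values were 5501, 2898 and 4544 in parental AAVS1 and 10696, 8204 and 6796 in parental 395 libraries, without overlap. In DDX3Xoe cells they were 1359, 6659 and 2752 with AAVS1 and 2559, 10533 and 3668 with 395. There replicate 2 was highest under both guides, and its 395 library nearly reached the highest parental library. In DDX3Yoe cells they were 5391, 600 and 3146 with AAVS1 and 6835, 8724 and 4507 with 395, and the groups overlapped. For IFI44L every group overlapped its neighbour in the order of means, which led from parental 395 (8565 ± 1975, SD, n = 3) to DDX3Yoe AAVS1 (3046 ± 2397).

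The IFI44 values were 469, 136 and 365 in parental AAVS1 and 1437, 792 and 558 in parental 395 libraries. In DDX3Xoe cells they were 223, 374 and 216 with AAVS1 and 285, 663 and 273 with 395. In DDX3Yoe cells they were 569, 78.7 and 232 with AAVS1 and 508, 543 and 366 with 395. The parental groups did not overlap, while the DDX3Xoe and DDX3Yoe pairs did. IFI44L exceeded IFI44 in every library, by 6.11 to 21.2 times with a median of 12.4. Of all pairs among the 7 genes these neighbours were the most alike across libraries, with a root mean square difference of 0.45 between their centred log2 values over 18 libraries, and IFI27 and IFI27L2 were the least alike at 1.91.

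IFI35 was at 680, 1379 and 1875 in parental AAVS1 and 2089, 1630 and 2049 in parental 395 libraries, which overlapped. In DDX3Xoe cells it was at 301, 1754 and 1205 with AAVS1 and 379, 1152 and 1480 with 395. Both replicate 1 libraries were the low ones there, and the guides overlapped. In DDX3Yoe cells it was at 988, 277 and 1336 with AAVS1 and 1977, 1860 and 1348 with 395, with the lowest 395 library just above the highest AAVS1 library. Neighbouring groups in the order of means overlapped throughout.

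Single libraries moved several of the genes at once. DDX3Yoe AAVS1 replicate 2 was the lowest of the 18 libraries for IFI6, IFI27, IFI44, IFI44L and IFI35, that is for 5 of 7 genes, against 2.9% of all genes tested. Deviations there from each gene's own mean were -2.86 for IFI6, -3.37 for IFI27, -2.21 for IFI44, -2.85 for IFI44L and -2.02 for IFI35 on the log2 scale, against -0.34 for IFI27L1 and 0.09 for IFI27L2. The second lowest library for IFI6, IFI27, IFI44L and IFI35 was the replicate 1 library labelled DDX3Xoe AAVS1. Parental 395 replicate 1, on which IFI6 was chosen, was the highest library for 6 of the 7 genes, where 14.1% of all genes had their highest value. A list of 46 other tested ISGs had its lowest library in DDX3Yoe AAVS1 replicate 2 for 26 genes, and its median deviation was -1.84 there and also -1.84 in the replicate 1 library labelled DDX3Xoe AAVS1.

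**Figure D3:**
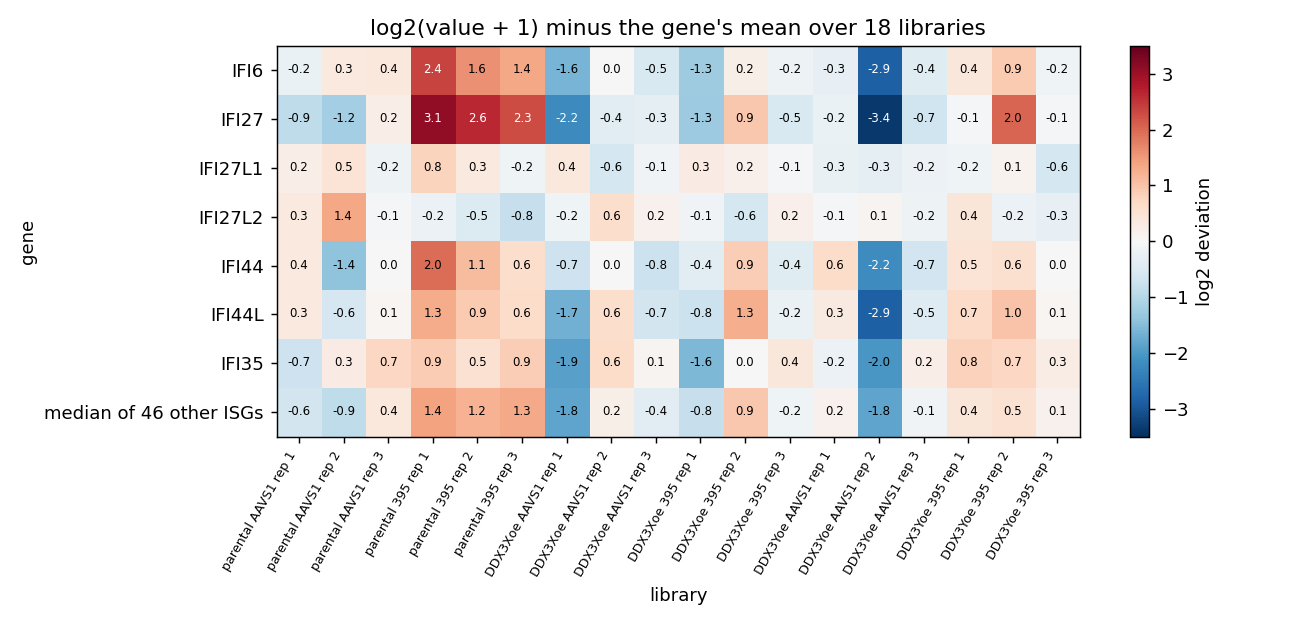
Deviation of each gene's log2(value + 1) from its own mean over 18 libraries (rows: the 7 genes and the median of 46 other ISGs; columns: libraries; red above and blue below the mean). IFI6, IFI27, IFI44, IFI44L and IFI35 are all at -2.0 or below in DDX3Yoe AAVS1 replicate 2, where IFI27L1 and IFI27L2 stay within 0.4 of their mean.

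Guide 395 was compared with AAVS1 in each kind of cell by limma over all genes, with differences on the scale of log2(value + 1) and Benjamini-Hochberg adjustment over the 15228 genes. In parental cells, whose 395 libraries served to choose IFI6, the log2 differences were 1.61 for IFI6, 3.30 for IFI27, 0.14 for IFI27L1, -1.04 for IFI27L2, 1.58 for IFI44, 1.01 for IFI44L and 0.66 for IFI35. IFI6, IFI27, IFI44 and IFI44L were higher without overlap between the groups, as were 10.7% of all genes, and IFI27L2 was lower without overlap, as were 9.86%. At the threshold used throughout, an adjusted p under 0.05, limma called 1 of the 7 genes, IFI27, beside 1.78% of all genes. Since the parental numbers were taken to pair the libraries, the fit was repeated with the replicate number as a block. That block is a shift per number shared by parental, DDX3Xoe and DDX3Yoe cells, so it does not model a pairing within parental cells alone. With it limma again called IFI27 alone of the 7, beside 4.45% of all genes. Both calls include the library on which IFI6 was picked, and both were lost without it, at an adjusted p of 0.117 in limma and 0.118 with the block.

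The parental comparison was repeated without parental 395 replicate 1, the library on which IFI6 was picked. The differences were then 1.32 for IFI6 (SE 0.69), 3.09 for IFI27 (SE 0.87), -0.09 for IFI27L1 (SE 0.32), -1.19 for IFI27L2 (SE 0.37), 1.21 for IFI44 (SE 0.64), 0.84 for IFI44L (SE 0.77) and 0.60 for IFI35 (SE 0.72). The adjusted p in limma was 0.402 for IFI6, 0.117 for IFI27, 0.149 for IFI27L2 and 0.407 for IFI44, so none of the 7 genes was called, beside 0.447% of all genes. IFI6, IFI27, IFI44 and IFI44L were still higher without overlap, as were 16.1% of all genes between groups of these sizes, and IFI27L2 lower, as were 14.7%. At an unadjusted p under 0.05 limma had 2 of 7 genes, IFI27 and IFI27L2, beside 14.3% of all genes. DESeq2 on the recovered reads called these 2 genes in that comparison, with an adjusted p of 0.0487 for IFI27 and 0.0369 for IFI27L2, while edgeR called 0. The 95% interval of limma for IFI27 ran from 1.25 to 4.93 in log2.

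In DDX3Xoe cells the differences between the guides were small beside the spread between libraries of a group. They were 0.31 for IFI6 (SE 0.62), 0.68 for IFI27 (SE 0.77), 0.26 for IFI27L1 (SE 0.30), -0.39 for IFI27L2 (SE 0.33), 0.51 for IFI44 (SE 0.58), 0.66 for IFI44L (SE 0.68) and 0.01 for IFI35 (SE 0.63). No gene of the 7 was free of overlap, beside 1.83% of all genes higher and 2.04% lower without overlap. Limma called 0 of 15228 genes, the adjusted p of each of the 7 was 1, and 0 of the 7 had an unadjusted p under 0.05, beside 2.07% of all genes. The counts called by edgeR and DESeq2 were also 0. The 95% intervals reached from -0.99 to 1.61 for IFI6 and from -0.93 to 2.30 for IFI27. Between libraries of the same replicate number, a pairing that was not settled, 3 of 3 differences were above 0 for IFI6 (0.21 to 0.38), IFI44 (0.34 to 0.825) and IFI44L (0.41 to 0.91). For IFI27, IFI27L1, IFI27L2 and IFI35 it was 2 of 3. These same-numbered differences were not tested. Without both replicate 1 libraries labelled DDX3Xoe the differences were 0.27 for IFI6, 0.56 for IFI27, 0.42 for IFI27L1, -0.60 for IFI27L2, 0.58 for IFI44 and 0.54 for IFI44L, and that of IFI35 turned to -0.16.

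In DDX3Yoe cells IFI6, IFI27 and IFI35 were higher with guide 395 in every library, as were 3.8% of all genes, while the other 4 genes overlapped. The differences were 1.59 for IFI6 (SE 0.62), 2.07 for IFI27 (SE 0.77), 0.05 for IFI27L1 (SE 0.30), 0.04 for IFI27L2 (SE 0.33), 1.09 for IFI44 (SE 0.58), 1.57 for IFI44L (SE 0.68) and 1.25 for IFI35 (SE 0.63). The unadjusted p in limma was 0.0196 for IFI6, 0.0148 for IFI27 and 0.0322 for IFI44L, that is under 0.05 for 3 of 7 genes beside 1.0% of all genes. None passed the adjustment over all genes, with an adjusted p of 1 for each of the 7 in limma and 0 genes called by limma, edgeR or DESeq2.

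These DDX3Yoe differences rested largely on replicate 2. Without both replicate 2 libraries the differences were 0.49 for IFI6, 0.41 for IFI27, 0.24 for IFI44, 0.43 for IFI44L and 0.51 for IFI35. They kept their direction for these 5 genes at a fraction of their size, and IFI27L1 turned to -0.16.

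**Figure D4:**
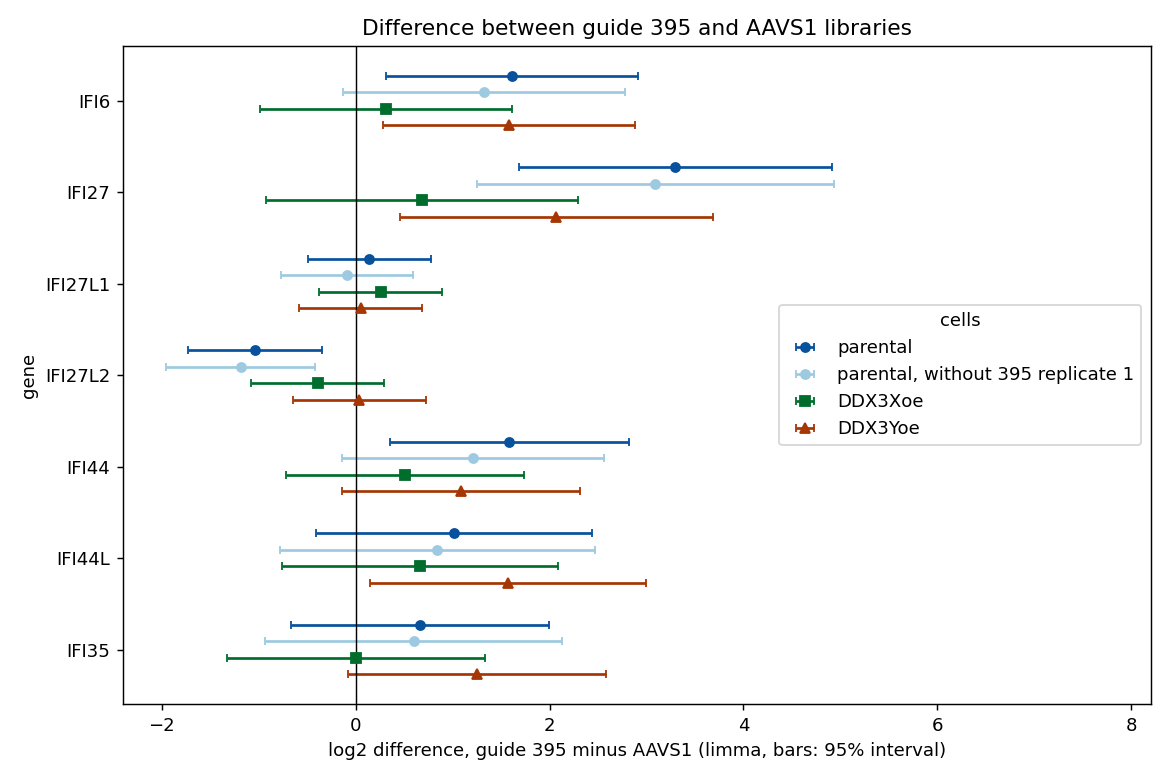
The log2 difference between guide 395 and AAVS1 libraries (horizontal axis, limma estimate with its 95% interval) for each gene in parental, DDX3Xoe and DDX3Yoe cells, with a fit that leaves out parental 395 replicate 1 in light blue. IFI27 lies at 3.30 in parental cells and 3.09 in that fit, IFI27L2 lies below 0 in both, and every DDX3Xoe interval spans 0.

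Averaged over DDX3Xoe and DDX3Yoe cells the differences were 0.95 for IFI6 (SE 0.44, unadjusted p 0.0440), 1.38 for IFI27 (SE 0.54, unadjusted p 0.0206) and 1.12 for IFI44L (SE 0.48, unadjusted p 0.0315) in limma. These 3 of 7 genes stood beside 1.48% of all genes with an unadjusted p under 0.05. IFI44 was at 0.80, IFI35 at 0.63, IFI27L1 at 0.15 and IFI27L2 at -0.18. None was called, with an adjusted p of 0.9999 for each of the 7 in limma, and edgeR and DESeq2 called 0 genes. Without both DDX3Yoe replicate 2 libraries the averages were 0.40 for IFI6, 0.55 for IFI27 and 0.55 for IFI44L. Without both replicate 1 libraries labelled DDX3Xoe they were 0.93 for IFI6, 1.31 for IFI27, 1.06 for IFI44L, 0.83 for IFI44, 0.55 for IFI35, 0.24 for IFI27L1 and -0.28 for IFI27L2.

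Whether the guide's effect differed between the lines was tested as the difference between the differences. Between DDX3Yoe and DDX3Xoe cells it was 1.28 for IFI6 (95% interval -0.56 to 3.12) and 1.39 for IFI27 (95% interval -0.89 to 3.67). None of the 7 genes was called, with an adjusted p of 0.9997 each in limma, and 0 of 7 had an unadjusted p under 0.05 beside 1.49% of all genes. Limma, edgeR and DESeq2 each called 0 genes in this comparison. Without both replicate 1 libraries labelled DDX3Xoe it was 1.31 for IFI6 and 1.51 for IFI27. Without both DDX3Yoe replicate 2 libraries it was 0.18 for IFI6, and that of IFI27 turned to -0.28. Against parental cells, whose 395 libraries entered the choice, IFI27 was lower by 2.61 in the DDX3Xoe effect and by 1.23 in the DDX3Yoe effect, and IFI6 was lower by 1.31 and 0.03. Without both replicate 1 libraries labelled DDX3Xoe the first of these comparisons gave -2.74 for IFI27 and -1.34 for IFI6. No gene of the 7 was called in either, beside 0.046% of all genes in the first and 0.0% in the second. DESeq2 called 86 and 9 genes there, none of them among the 7, and the 2 comparisons share the parental libraries.

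Under the control guide all 7 genes had lower means of log2 values in DDX3Xoe and in DDX3Yoe than in parental cells. The differences ran from -0.88 for IFI6 to -0.13 for IFI44 in DDX3Xoe cells and from -1.36 for IFI6 to -0.38 for IFI44 in DDX3Yoe cells. Values above 0 were found for 47.7 and 47.3% of all genes, and both comparisons share the parental AAVS1 libraries. IFI6 and IFI27L1 were lower without overlap in DDX3Yoe cells, beside 3.78% of all genes, and none of the 7 in DDX3Xoe cells, beside 1.58%. Limma, edgeR and DESeq2 called 0 genes in each, and at an unadjusted p under 0.05 limma had 1 of 7 genes in DDX3Yoe cells, IFI6, beside 2.64% of all genes, and 0 of 7 in DDX3Xoe cells, beside 0.985%. Without DDX3Yoe AAVS1 replicate 2 the DDX3Yoe difference of IFI6 was -0.53, and those of IFI27 and IFI44 turned to 0.16 and 0.35. Without the replicate 1 library labelled DDX3Xoe AAVS1 the DDX3Xoe difference of IFI6 was -0.42, and those of IFI27, IFI44L and IFI35 turned to 0.27, 0.04 and 0.27. Between DDX3Yoe and DDX3Xoe cells the 7 differences lay between -0.48 and -0.14, with none called and 0 genes called by the 3 tools. Without DDX3Yoe AAVS1 replicate 2 those of IFI6, IFI27, IFI44, IFI44L and IFI35 turned to 0.35, 0.51, 0.47, 0.50 and 0.42. Without the replicate 1 library labelled DDX3Xoe AAVS1 they were -0.94, -1.08, -0.38, -0.98 and -1.02, and that of IFI27L1 turned to 0.10.

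Reads of the interferon genes that were looked up were few on day 7. Other interferon genes, earlier days and secreted protein were not examined. Of 23 genes for interferons, their receptors and signalling, 15 passed the filter on low values, and IFNA1, IFNA2, IFNK and IFNG had 0 reads in every library, where a count of 0 allows up to 3 reads. IFNB1, the type I interferon of most cell types, was at 73.0 in parental 395 replicate 1 (83 reads), at 15.4 in parental AAVS1 replicate 1 (23 reads) and at no more than 3 reads in each of the other 16 libraries. IFNL1, a type III interferon, was at 81.8, 9.84 and 41.7 in parental 395 and at 5.37, 0 and 6.69 in parental AAVS1 libraries. It reached 10.7 at most in DDX3Xoe and 6.71 at most in DDX3Yoe libraries. IFNE, IFNL2 and IFNL3 did not pass the filter and reached 5.16, 7.14 and 8.79.

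The receptors and kinases were present throughout. Values over the 18 libraries averaged 378 for IFNAR1 and 242 for IFNAR2, the type I receptor chains, 23.3 for IFNLR1 and 628 for IL10RB, the type III receptor chains, and 49.98 for IFNGR1 and 184 for IFNGR2. In DDX3Yoe cells, where IFI6 and IFI27 differed most apart from parental cells, the difference between guides was -0.03 for IFNAR1, 0.17 for IFNAR2, 0.45 for IFNLR1 and -0.24 for JAK1. TYK2 was at 0.18, JAK2 at 0.17, IRF1 at 0.04, IRF2 at 0.35 and IRF3 at 0.26, and the feedback inhibitors SOCS1 and SOCS3 at 1.59 and 0.91. Limma called none of the 15 in DDX3Xoe or DDX3Yoe cells, with medians of 0.05 and 0.17. In parental cells 1 of 15 was called, JAK2 at 1.69, and the median was 0.52. Without parental 395 replicate 1, 0 of 15 were called and the median was 0.33.

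Most of the other ISGs had differences of the same sign as IFI6, IFI27, IFI44 and IFI44L. In DDX3Yoe cells 46 of 46 tested ISGs had a difference above 0, with a median of 1.02 against -0.0021 for all genes, and in DDX3Xoe cells 44 of 46 with a median of 0.55 against -0.02. Limma called none of the 46 in either. Without both DDX3Yoe replicate 2 libraries the DDX3Yoe median was 0.22, with 40 of 46 above 0, and without both replicate 1 libraries the DDX3Xoe median was 0.42, also with 40 of 46. In parental cells 45 of 46 were above 0 with a median of 1.54, and 5 were called (ISG20, IFIT2, CMPK2, RTP4 and IRF7, named after their values were seen). Without parental 395 replicate 1 the parental median was 1.68 with 46 of 46 above 0, and none was called. Among the 6 most abundant of them the DDX3Yoe differences included 0.58 for IFITM3, 1.03 for IFIT1, 0.69 for LGALS3BP, 1.17 for IFIT3 and 0.61 for SAMD9.

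The genes most like each of the 7 across the 18 libraries were found by the root mean square difference of centred log2 values, a measure in which the libraries shared by both genes, including those at the extremes, count in full. For IFI6 they were OAS1 (0.34), IFIT3, IFIT1, ISG15 and LY6E, against a median of 1.28 over all genes. For IFI27 they were BST2 (0.36), TYMP, MX2, HLA-B and HCP5, against a median of 1.72. For IFI44 they included HELZ2 (0.39), TRIM22, DHX58 and SAMD9L, and for IFI44L OAS3 (0.33), ISG15, OAS1 and IFIT3. For IFI35 they were UBE2L6 (0.30), the gene of the ISG15-conjugating enzyme, C19orf66 and PSME2P6, a proteasome activator pseudogene whose reads may come from its parent gene. IFI27L1 was most like POLR2C (0.19), UBE2D3 and IER2, and IFI27L2 most like RDH11 (0.18), COX7C and MPDU1, none of them in the ISG list. Without parental 395 replicate 1, 4 of 5 of these genes were found again for IFI6 and for IFI27, 3 of 5 for IFI44 and 5 of 5 for IFI44L, but 1 of 3 for IFI27L1.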

How the data were processed

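The libraries were made from total RNA with a 3′ mRNA sequencing kit, per the labels' protocols. The authors deposited a normalised signal per Ensembl gene in 18 libraries. Dividing each column by what 1 read is worth gave whole reads for 100% of values in every library (tolerance 0.01), so the deposited values are counts over 1 size factor per library. Alignment and counting tools in the submitters' processing notes are STAR 2.5.2b, featureCounts 1.5.1 and RSEM 1.3.0, with limma and the build GRCh38, and the sources used here give neither the strand setting nor the annotation release. Symbols and positions came from GENCODE 29 (57446 identifiers matched), and promoter sequences from RefSeq (GRCh38.p14).

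Values were analysed as log2(deposited value + 1), where the added 1 understates the differences of low genes, with limma 3.58.1 in R 4.3.3. The fit had 6 group means over 18 libraries, 12 residual degrees of freedom and an intensity trend. The test was tried on simulated data with the same spread setting for all genes. That trial does not show how the test behaves at the spread between these libraries. The recovered counts were tested with edgeR 4.0.16 and DESeq2 1.42.0, which called 244 and 909 genes in parental cells against limma's 271. Replicate pairs within a group differed beyond sampling noise (22.0 to 154 for the chi-square statistic over its degrees of freedom).

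The 7 genes and all gene lists were chosen with earlier results of these data known. The text names the 7 genes, the 5 (for IFI27L1, IFI27L2 and IFI35, 3) most similar genes, the 6 most abundant ISGs, the interferon and receptor genes, and DDX3X and DDX3Y, except 1 gene that is not reported here. The plan defined the library on which IFI6 was chosen by its lead in log2 deviation, and IFI6 led none that way, so the planned test gave no result. The library was instead found by IFI6 having the highest value, and leaving it out was added after the data were seen, as was leaving out both DDX3Yoe replicate 2 libraries. The numbers after leaving out an AAVS1 library or a pair of libraries in the comparisons of lines, and the ISG medians without a pair, are differences of means with no test, and were also added.

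Same-numbered parental libraries deviated together (correlations 0.57, 0.201 and 0.28), so their numbers were taken to pair them, while those in DDX3Xoe (0.231, -0.0279 and 0.3) and DDX3Yoe cells (0.0745, 0.114 and 0.238) were not. Differently numbered libraries correlated at -0.388 to 0.152 in parental, -0.369 to 0.179 in DDX3Xoe and -0.16 to 0.0627 in DDX3Yoe cells. Whether the numbers pair the libraries in DDX3Xoe and DDX3Yoe cells was thus not settled. Alternatives were quantile normalisation, median-centring, pseudocounts of 0.1 and 5, a low-value filter of 50 or none, moderation with no intensity trend, a fit of the compared groups only, a replicate block, edgeR, DESeq2, and leaving out each library or both DDX3Xoe replicate 1 libraries.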

Additional observations from a re-analysis of the deposited data

How the results depend on the processing

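In parental cells limma called 1 of the 7 genes, IFI27, and 9 of 12 alternatives other than leaving out a parental library called 1 as well. The count was 0 with no filter (adjusted p 0.0567), 0 with no intensity trend (0.0697), 3 with DESeq2 (IFI6, IFI27 and IFI27L2) and 0 to 2 on leaving out each parental library in turn, with 2 without AAVS1 replicate 3 and 0 without any of the other 5. Without parental 395 replicate 1, where limma called 0, DESeq2 called 2. The cause was not tested. The comparisons other than the parental ones called 0 of 7, with adjusted p values in limma of 0.569 or more, and a count that stayed at 0 there says nothing about stability. Over all genes the parental count of 271 became 159 with no filter, 909 with DESeq2, 677 with the replicate block and 60 to 366 on leaving out a library. With the replicate block the parental call of IFI27 stood (adjusted p 0.0253) with 1 of 7 called, beside 4.45% of all genes, but without parental 395 replicate 1 the blocked adjusted p was 0.118. The block changed no other call of the 7 genes. In DDX3Xoe and DDX3Yoe cells, where it was not settled whether the numbers pair the libraries, the block also called 0 of 7.

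On leaving out each library in turn, the signs of some differences turned. IFI27L1 in parental cells (0.14) ranged from -0.090 without 395 replicate 1 to 0.38. In DDX3Xoe cells IFI6 (0.31) ranged from -0.15 without AAVS1 replicate 1 to 0.74, and IFI35 (0.01) from -0.75 without AAVS1 replicate 1 to 0.60. In DDX3Yoe cells IFI27L1 (0.05) ranged from -0.12 without 395 replicate 2 to 0.25, and IFI27L2 (0.04) from -0.19 without 395 replicate 1 to 0.17. IFI35 in DDX3Xoe cells was also at -0.11 with edgeR and with DESeq2 and at -0.16 without both replicate 1 libraries, and IFI27L1 in DDX3Yoe cells at -0.16 without both replicate 2 libraries. Of 630 alternatives for single genes, 604 kept direction and side of the threshold. In DDX3Xoe and DDX3Yoe cells and their average no gene came near the threshold, so keeping its side there says nothing about stability. The call of IFI27 in parental cells was kept in 10 of 12 alternatives other than leaving out a library. It was kept in 1 of 6 fits that left out a parental library. Depth limits the lowest values, such as IFI27 on 35 reads in DDX3Yoe AAVS1 replicate 2.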

Other observations

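The 4 libraries with 0 reads of IFNL1 were compared with the ISG levels after their values were seen. Of them, DDX3Yoe AAVS1 replicate 2, the replicate 1 library labelled DDX3Xoe AAVS1 and parental AAVS1 replicate 2 had the 3 lowest median deviations of the 46 other ISGs, at -1.84, -1.84 and -0.89 on the log2 scale. The fourth, DDX3Xoe 395 replicate 2, had a median of 0.93, and its IFI44L value of 10533 was the second highest of the 18 libraries. With 1 read of IFNL1, DDX3Xoe 395 replicates 1 and 3 and DDX3Yoe 395 replicate 2 had medians of -0.80, -0.16 and 0.54. DDX3Xoe 395 replicate 2 and DDX3Yoe AAVS1 replicate 2 also had the fewest reads in all, at 5667609 and 6881021. Counts of 0 and 1 can hardly be told apart, and a relation between IFNL1 and the ISGs was not tested. IFI44 in parental AAVS1 replicate 2 was at 136, its second lowest value, while IFI6 there was at 65589, close to the 66485 of replicate 3.

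Within the parental AAVS1 libraries, IFNB1 had 23 reads in replicate 1 and 0 in replicates 2 and 3. Replicate 1 had the lowest IFI6 and IFI35 values of the 3, at 43776 and 680, and the highest IFI44 and IFI44L values, at 469 and 5501. In parental 395 replicate 1, with 83 reads of IFNB1, 6 of the 7 genes were at their highest of the 18 libraries. A relation between IFNB1 and the 7 genes was not tested.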
